A study of Arabidopsis thaliana with 12 samples.

Results

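Glutathione S-transferases of the tau and phi classes were followed in seedlings of Arabidopsis thaliana, with and without dehydration, in the wild type (WT) and in the cost1 mutant. The members were 40 loci taken by their locus identifiers, 28 tau genes (GSTU1 to GSTU28) and 12 phi genes (GSTF2, GSTF3 and GSTF5 to GSTF14), out of 24035 genes listed in at least 1 library. GSTF4 (AT1G02950) was not among the listed loci and is counted below with the other glutathione transferases.

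Glutathione S-transferases join the tripeptide glutathione to reactive, electrophilic molecules, or use glutathione to reduce peroxides. The conjugates are carried into the vacuole by ABC transporters of the ABCC group and broken down there. The tau class is found in plants and the phi class is largely a plant class, and in Arabidopsis many of their genes lie side by side as copies. Several were first cloned as genes that respond to stress, and the reference lists GSTU17 as ERD9, GSTF6 as ERD11 and GSTF10 as ERD13, names that stand for early responsive to dehydration.

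Poly(A) RNA of seedlings was sequenced in 12 libraries, 3 in each of 4 groups. WT control and cost1 control were seedlings raised upright on plates of medium for 10 days without dehydration, and WT dehydrated and cost1 dehydrated were seedlings of the same age kept on a petri dish for 6 h. The accession of the wild type, the nature of the cost1 allele and the number of seedlings in a library are not stated in the labels. Separate plates or growths are not stated for the libraries of a group either, so the spread behind each p-value may be that of technical repeats.

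Expected counts, the estimated number of reads of a gene, summed to between 5884728 and 6223687 per library, and between 32 and 39 of the members were listed in a library. COST1, the gene that the mutant is named for, had expected counts of 148 to 216 in the WT libraries and 36.2 to 61.2 in the cost1 libraries. RD29A, a standard marker of dehydration, stood at 5.04 to 22.8 FPKM in the control libraries and 537 to 1286 in the dehydrated libraries (FPKM is a level scaled to transcript length and sequencing depth). Leaf mesophyll markers, 5 in number, summed to 16060 to 19800 FPKM in WT control and 9728 to 14300 in WT dehydrated, and to 15710 to 23510 in cost1 control and 8131 to 13660 in cost1 dehydrated, so the sums did not overlap between treatments. Of 8 root markers, 7 averaged under 1 FPKM in each group, and the root hair regulator RHD6 was at 0 in 3 of the groups, although the labelled tissue is the seedling. Whether roots were harvested is not stated in the labels. The summed root markers were 16.97 to 20.76 FPKM in WT control and 18.1 to 20.7 in cost1 control, and 6.55 to 12.6 and 8.77 to 12.2 in the dehydrated groups of WT and cost1, and also did not overlap between treatments. SCR held most of the root sums, with means of 17.44 (WT) and 17.55 FPKM (cost1) without dehydration, and 9.48 and 9.03 after it. These sums thus largely follow 1 gene, the only root marker with enough counts to be tested. Tested gene by gene in edgeR at an adjusted p under 0.05, SCR was lower after dehydration in both genotypes. Of the leaf mesophyll markers, 0 were lower in WT and 1, RBCS1A, was lower in cost1. The part of both marker sets in the results below was not tested.

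Replicate 2 of cost1 control stood apart from the other control libraries. On the first principal component of all genes, which held 77.4% of the variance, it lay at −50.4, the other controls between −91.1 and −86.7 and the dehydrated libraries between 60.1 and 114. Its RD29A level was the 22.8 FPKM given above. Changes in cost1 that moved by over 1.5 times when it was left out are given both ways.

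Most tau and phi genes were higher after dehydration in the wild type. Of the 40 members, 27 were called higher in WT dehydrated than in WT control, 19 tau and 8 phi, and 1, GSTU27, was called lower. A call is an adjusted p under 0.05 in the quasi-likelihood test of edgeR with Benjamini-Hochberg adjustment over the 18809 genes tested, and over all those genes 24.9% were called higher and 20.6% lower. In bulk tissue a change in the share of cells of a type and a change in RNA per cell cannot be told apart. Of the other members, 5 were tested and not called (GSTU8, GSTU20, GSTU23, GSTU26 and GSTF11) and 7 had too few counts to be tested. The median log2 change of the 33 members tested was 1.94, beside −0.02 for all genes tested. Among those 33, GSTU2, GSTU9, GSTU11, GSTU12, GSTU25, GSTU28 and GSTF3 had under 10 counts in each of the 6 control libraries and passed the filter on low counts through the dehydrated libraries, and all 7 were called higher. GSTU3, at 1, 5 and 2 counts in WT control and 0, 19 and 0 in cost1 control, also needed the dehydrated libraries to pass. So did GSTF12, at 7, 5 and 4 counts in WT control and 8, 189 and 18 in cost1 control. Both were called higher in WT. The calls and the median thus include members kept through the groups where they are high. GSTU21 was listed in no library, and GSTU14, GSTU15, GSTU22, GSTF5, GSTF13 and GSTF14 were listed but stayed at or below 2.30 FPKM.

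**Figure D1:**
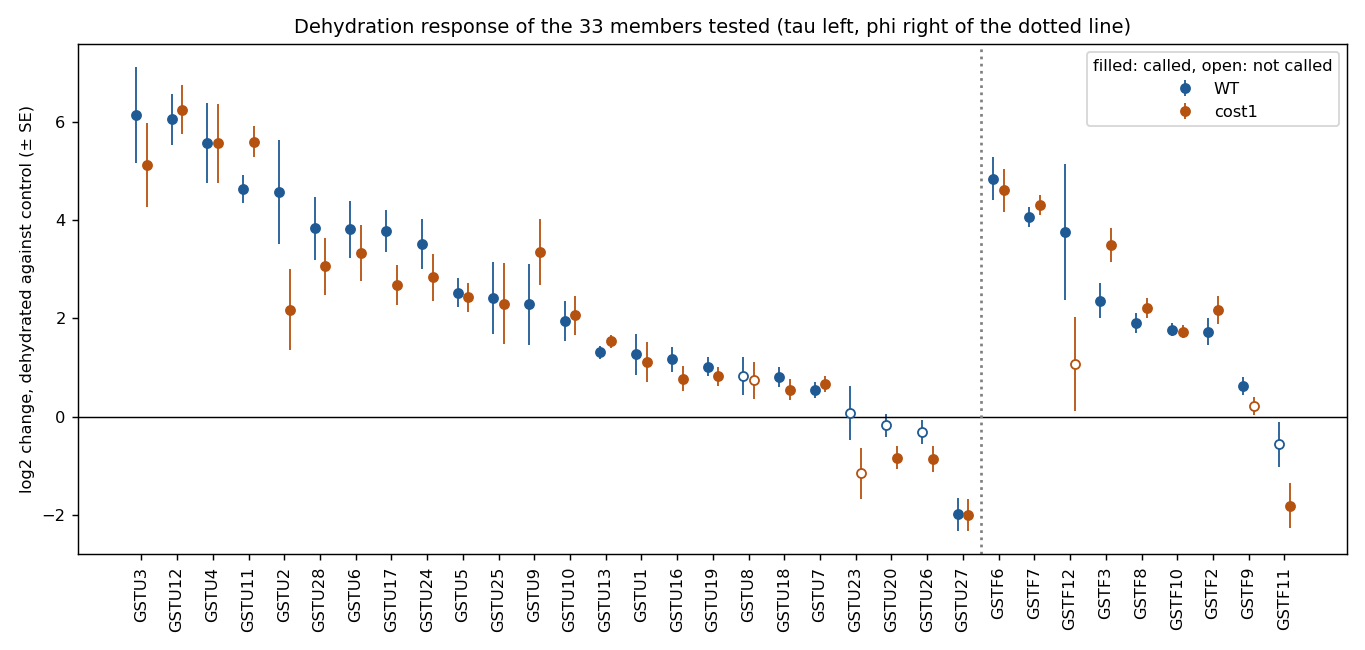
Log2 change on dehydration (vertical axis, with its standard error) of the 33 members tested in WT and in cost1, ordered within each class by the WT change. Filled points were called at an adjusted p under 0.05. In WT 27 members lie above 0 with filled points and GSTU27 lies below it.

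GSTF6 (AT1G02930), an enzyme that takes part in the synthesis of the defence compound camalexin, was the most abundant phi gene. It stood at 68.6, 60.1 and 80.2 FPKM in WT control, 1721, 1745 and 1957 in WT dehydrated, 63.9, 192 and 60.98 in cost1 control, and 1861, 2672 and 2489 in cost1 dehydrated. The dehydrated libraries of both genotypes lay far above all controls, and among the controls cost1 control replicate 2 was the highest. The log2 change of GSTF6 was 4.84 ± 0.44 (SE, adjusted p = 6.64e-06) in WT and 4.60 ± 0.43 (SE, adjusted p = 7.69e-06) in cost1, and 5.41 in cost1 without cost1 control replicate 2.

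GSTF7 (AT1G02920), a neighbouring copy of GSTF6, stood at 40.7, 37.2 and 44.4 FPKM in WT control, 637, 563 and 651 in WT dehydrated, 41.6, 55.2 and 42.2 in cost1 control, and 645, 948 and 880.2 in cost1 dehydrated. Its groups did not overlap between treatments, and its log2 change was 4.07 ± 0.21 (SE, adjusted p = 2.46e-07) in WT and 4.30 ± 0.21 (SE, adjusted p = 1.65e-07) in cost1. The coding sequences of GSTF6 and GSTF7 are 94.29% identical, and both had fractional counts in 12 of 12 libraries, so how reads were divided between this pair is uncertain. GSTF2 (AT4G02520) and GSTF3 (AT2G02930) are 94.52% identical and carry the same limit. GSTF2, whose protein binds indole compounds, averaged 106 ± 22.4 FPKM (SD, n = 3) in WT control and 316 ± 18.7 FPKM (SD, n = 3) in WT dehydrated. GSTF3 averaged 0.90 ± 0.12 FPKM (SD, n = 3) and 3.94 ± 0.68 FPKM (SD, n = 3) in the same groups. GSTF2 rose by 1.73 ± 0.28 (SE, adjusted p = 0.000409) on the log2 scale and GSTF3 by 2.36 ± 0.35 (SE, adjusted p = 0.000229) in WT.

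GSTF8 (AT2G47730), a stress-responsive gene with a plastid form of its protein, rose from 153 ± 18.2 FPKM (SD, n = 3) in WT control to 517 ± 23.4 FPKM (SD, n = 3) in WT dehydrated, a log2 change of 1.90 ± 0.20 (SE, adjusted p = 1.97e-05). In cost1 its log2 change was 2.20 ± 0.20 (SE, adjusted p = 6.85e-06).

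GSTF12 (AT5G17220), also known as TRANSPARENT TESTA 19 and needed to bring anthocyanins into the vacuole, stood at 1.05, 0.74 and 0.62 FPKM in WT control, 7.75, 3.02 and 19.2 in WT dehydrated, 1.25, 27.96 and 2.68 in cost1 control, and 10.4, 42.98 and 7.80 in cost1 dehydrated. The WT groups did not overlap, whereas cost1 control replicate 2 lay above both other dehydrated cost1 libraries. In WT the log2 change was 3.76 ± 1.38 (SE, adjusted p = 0.0419), a call lost when any of 5 of the 6 WT libraries was left out, with adjusted p of 0.0580 to 0.160. In cost1 it was 1.08 ± 0.95 (SE, adjusted p = 0.366), not called, and 3.57 (adjusted p = 0.00912) without cost1 control replicate 2. Without cost1 dehydrated replicate 2 it was −0.15, also not called, the only setting in which its sign turned.

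GSTF11 (AT3G03190), which in Arabidopsis takes part in the synthesis of aliphatic glucosinolates, stood at 12.01, 11.4 and 13.7 FPKM in WT control, 10.6, 7.13 and 4.96 in WT dehydrated, 12.2, 24.4 and 18.6 in cost1 control, and 8.16, 1.06 and 5.13 in cost1 dehydrated. In FPKM every dehydrated cost1 library lay below every cost1 control, and the WT groups did not overlap either. FPKM leaves out the scaling between libraries that the tests used. With that scaling the median WT change of all genes was −0.02, and without it −0.16. The WT gap of GSTF11 was narrow and need not hold on the tested scale. The log2 change of GSTF11 was −0.57 ± 0.45 (SE, adjusted p = 0.33) in WT, not called, and −1.81 ± 0.47 (SE, adjusted p = 0.00701) in cost1, called lower. The cost1 change was −2.42 without cost1 dehydrated replicate 1 and −1.04 without both cost1 libraries numbered 2, an alternative chosen after seeing the data, and it was called in both.

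GSTU19 (AT1G78380), a major glutathione S-transferase of Arabidopsis, was the most abundant tau gene. It stood at 336, 355 and 377 FPKM in WT control, 614, 607 and 729 in WT dehydrated, 346, 536 and 395 in cost1 control, and 569, 791 and 669 in cost1 dehydrated. Dehydrated libraries lay above all controls, and cost1 control replicate 2 was nearest to them. The log2 change was 1.02 ± 0.20 (SE, adjusted p = 0.0014) in WT and 0.82 ± 0.20 (SE, adjusted p = 0.00466) in cost1.

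GSTU3 (AT2G29470), GSTU12 (AT1G69920) and GSTU4 (AT2G29460) gave the largest changes in WT by the rule for named genes, all from very low control levels. GSTU3 stood at 0.15, 0.76 and 0.31 FPKM in WT control, 17.5, 26.1 and 38.2 in WT dehydrated, 0, 2.88 and 0 in cost1 control, and 13.7, 54.2 and 24.7 in cost1 dehydrated. In cost1 the only control library with GSTU3 was replicate 2, and the other two were at 0, so the size of the fitted cost1 change rests on that library. Without it, GSTU3 in cost1 dehydrated stood at 132 times a floor of 3 counts over the 2 control libraries. That figure covers counting error only and keeps cost1 dehydrated replicate 2, the highest library. It is not a lower bound for the cost1 change. GSTU12 stood at 0.33, 0.49 and 0 FPKM in WT control, 20.6, 14.4 and 18.3 in WT dehydrated, 0.51, 0.49 and 0 in cost1 control, and 33.3, 19.5 and 19.9 in cost1 dehydrated. GSTU4 stood at 1.53, 2.35 and 5.59 FPKM in WT control, 102, 118 and 182 in WT dehydrated, 1.31, 10.6 and 0.83 in cost1 control, and 82.8, 297 and 169 in cost1 dehydrated. For all 3 genes the dehydrated libraries lay above every control library. The log2 change of GSTU3 was 6.14 ± 0.98 (SE, adjusted p = 0.00037) in WT and 5.12 ± 0.85 (SE, adjusted p = 0.000464) in cost1. That of GSTU12 was 6.05 ± 0.52 (SE, adjusted p = 4.66e-06) in WT and 6.25 ± 0.50 (SE, adjusted p = 2.4e-06) in cost1. For GSTU4 it was 5.56 ± 0.82 (SE, adjusted p = 0.000212) in WT and 5.56 ± 0.80 (SE, adjusted p = 0.00017) in cost1, and 7.61 in cost1 without cost1 control replicate 2. Leaving out WT control replicate 2 gave a WT change of 6.90 for GSTU3 and 6.70 for GSTU12, leaving out WT control replicate 3 gave 6.24 for GSTU4, and leaving out cost1 control replicate 3 gave a cost1 change of 5.66 for GSTU12 and 4.51 for GSTU3. Without cost1 dehydrated replicate 2 the cost1 change was 4.38 for GSTU3 and 4.97 for GSTU4.

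GSTU11 (AT1G69930), the locus beside GSTU12, stood at 1.06, 1.35 and 0.78 FPKM in WT control, 26.6, 17.1 and 28.9 in WT dehydrated, 0.47, 0.45 and 0.75 in cost1 control, and 22.3, 27.8 and 24.9 in cost1 dehydrated. Its controls were all at or below 1.35 FPKM and its dehydrated libraries at or above 17.1. The log2 change was 4.63 ± 0.28 (SE, adjusted p = 4.6e-07) in WT and 5.59 ± 0.31 (SE, adjusted p = 3.1e-07) in cost1.

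GSTU17 (AT1G10370), also called ERD9 and studied in Arabidopsis for its part in light and drought responses, stood at 28.9, 19.2 and 29.5 FPKM in WT control, 291, 379 and 289 in WT dehydrated, 34.4, 90.95 and 27.3 in cost1 control, and 234, 329.9 and 331 in cost1 dehydrated. No control library reached the dehydrated ones, and cost1 control replicate 2 was the highest control. The log2 change was 3.77 ± 0.43 (SE, adjusted p = 3.33e-05) in WT and 2.68 ± 0.40 (SE, adjusted p = 0.000243) in cost1, and 3.46 in cost1 without cost1 control replicate 2. GSTU24 (AT1G17170), studied in Arabidopsis for its part in detoxifying the explosive TNT, averaged 2.61 ± 0.86 FPKM (SD, n = 3) in WT control and 26.9 ± 13.1 FPKM (SD, n = 3) in WT dehydrated, with a log2 change of 3.51 ± 0.51 (SE, adjusted p = 0.000185). In cost1 the change of GSTU24 was 2.83 ± 0.47 (SE, adjusted p = 0.000462), and 3.63 without cost1 control replicate 2. GSTU13 (AT1G27130), which acts in the metabolism of indole glucosinolates, averaged 47.5 ± 3.01 FPKM (SD, n = 3) in WT control and 106 ± 5.10 FPKM (SD, n = 3) in WT dehydrated, with a log2 change of 1.31 ± 0.13 (SE, adjusted p = 1.34e-05). The remaining tau genes called higher in WT were GSTU1, GSTU2, GSTU5 to GSTU7, GSTU9, GSTU10, GSTU16, GSTU18, GSTU25 and GSTU28, with log2 changes from 0.54 for GSTU7 to 4.57 for GSTU2. GSTU2 had 2 counts over the WT controls against 51 over the WT dehydrated libraries, a ratio of 25.4 with a 95% counting interval of 6.67 to 215, which covers counting error only. Without WT dehydrated replicate 3 the WT change was 0.68 for GSTU1 and 1.67 for GSTU9, and neither was called. In cost1 GSTU9 changed by 3.35 ± 0.67 (SE, adjusted p = 0.00161), and by 2.3961 without cost1 dehydrated replicate 2, while GSTU2 changed by 2.17 ± 0.82 (SE, adjusted p = 0.0435), and by 3.29 without cost1 control replicate 2.

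**Figure D2:**
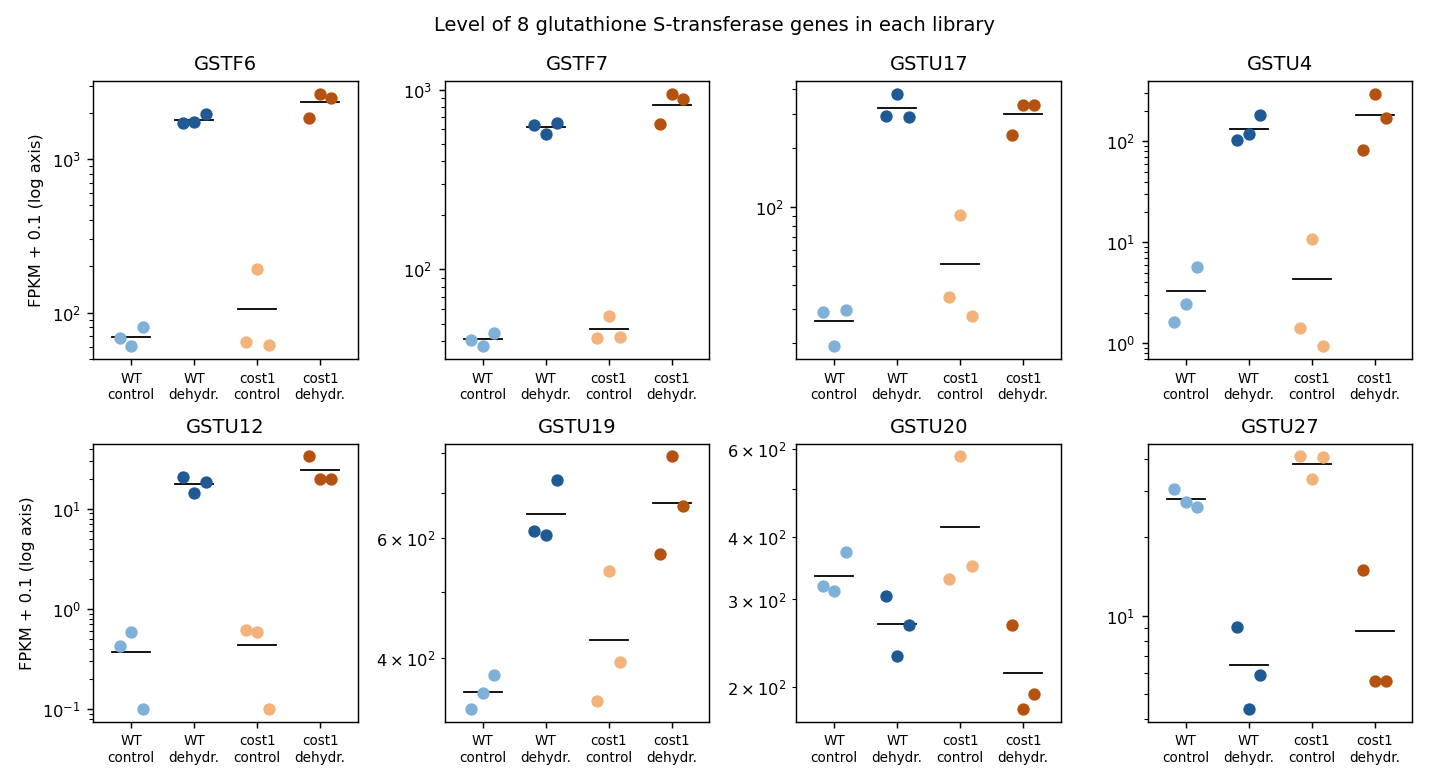
FPKM plus 0.1 on a log axis for 8 members in each of the 12 libraries. Points are libraries and lines are group means. GSTF6, GSTF7, GSTU17, GSTU4 and GSTU12 are higher in every dehydrated library than in every control, and GSTU27 is lower.

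GSTU27 (AT3G43800) was the member called lower in both genotypes. It stood at 30.5, 27.1 and 25.9 FPKM in WT control, 8.91, 4.28 and 5.83 in WT dehydrated, 40.7, 33.4 and 40.6 in cost1 control, and 14.8, 5.50 and 5.51 in cost1 dehydrated. Each dehydrated library lay below each control. The log2 change was −1.99 ± 0.34 (SE, adjusted p = 0.00058) in WT and −2.0 ± 0.33 (SE, adjusted p = 0.0004) in cost1, and −2.62 in cost1 without cost1 dehydrated replicate 1.

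In cost1, 25 of the 40 members were called higher, 19 tau and 6 phi, and 4 lower, where 26.4% of all genes tested were called higher and 24.5% lower. The median log2 change of the 33 members tested was 2.17, beside −0.03 for all genes tested. All 25 were also called higher in WT, and the overlap of calls over all genes is not given here. The 2 responses use separate libraries but come from 1 fit with a shared estimate of the spread. GSTF9 and GSTF12 were called higher in WT alone, but the difference between the responses was not called for either. The 4 members called lower were GSTU20, GSTU26, GSTU27 and GSTF11.

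GSTU20 (AT1G78370), which interacts with the jasmonate-conjugating enzyme JAR1 and also takes part in aliphatic glucosinolate synthesis, stood at 319, 312 and 374 FPKM in WT control, 304, 231 and 267 in WT dehydrated, 329, 581 and 349.7 in cost1 control, and 267, 181 and 194 in cost1 dehydrated. In FPKM every dehydrated library lay below every control, the top being WT dehydrated replicate 1, and cost1 control replicate 2 was the highest of all. The WT gap was narrow, and FPKM leaves out the scaling between libraries that the tests used, so it need not hold on the tested scale. The log2 change was −0.18 ± 0.23 (SE, adjusted p = 0.554) in WT, not called, and −0.84 ± 0.23 (SE, adjusted p = 0.0099) in cost1. Without cost1 control replicate 2 the cost1 change was −0.48, still called, and without both cost1 libraries numbered 2 it was −0.39 (adjusted p = 0.0974). GSTU26 (AT1G17190) stood at 4.93, 6.73 and 6.51 FPKM in WT control, 3.22, 4.98 and 4.95 in WT dehydrated, 4.19, 5.64 and 6.13 in cost1 control, and 2.48, 2.62 and 2.78 in cost1 dehydrated. Its cost1 groups did not overlap and its WT groups did. The log2 change of GSTU26 was −0.32 ± 0.24 (SE, adjusted p = 0.308) in WT, not called, and −0.86 ± 0.26 (SE, adjusted p = 0.0151) in cost1, and the adjusted p was 0.0800 without both cost1 libraries numbered 2 and 0.0545 without cost1 control replicate 3.

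Both classes held members that rose. Summed over its 28 genes, the tau class went from 1019 ± 69.3 FPKM (SD, n = 3) in WT control to 2271 ± 227 with dehydration, and from 1227 ± 322 in cost1 control to 2295 ± 377 with dehydration. The 12 phi genes went from 1275 ± 91.9 FPKM to 4870 ± 373 in WT, and from 1500 ± 317 to 5845 ± 855 in cost1. The phi share of the summed level was thus 55.1% to 56.0% in the WT controls and 66.3% to 70.5% in the WT dehydrated libraries. In cost1 it was 53.8% to 56.3% in control and 71.1% to 72.5% under dehydration. GSTF6 alone held 2.75% to 3.24% of the summed level in WT control and 24.9% to 25.7% in WT dehydrated. In cost1 control GSTF6 held 2.45% to 5.56%, the top value being that of replicate 2, and in cost1 dehydrated 27.3% to 29.7%. The median log2 change in WT was 2.11 over the 24 tau genes tested and 1.90 over the 9 phi genes tested, and in cost1 it was 2.12 and 2.18. No test was made of the difference between the classes. All members together held 0.254% to 0.288% of the expected counts of the WT controls and 0.770% to 0.874% after dehydration, against 0.261% to 0.399% and 0.776% to 1.05% in cost1.

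**Figure D3:**
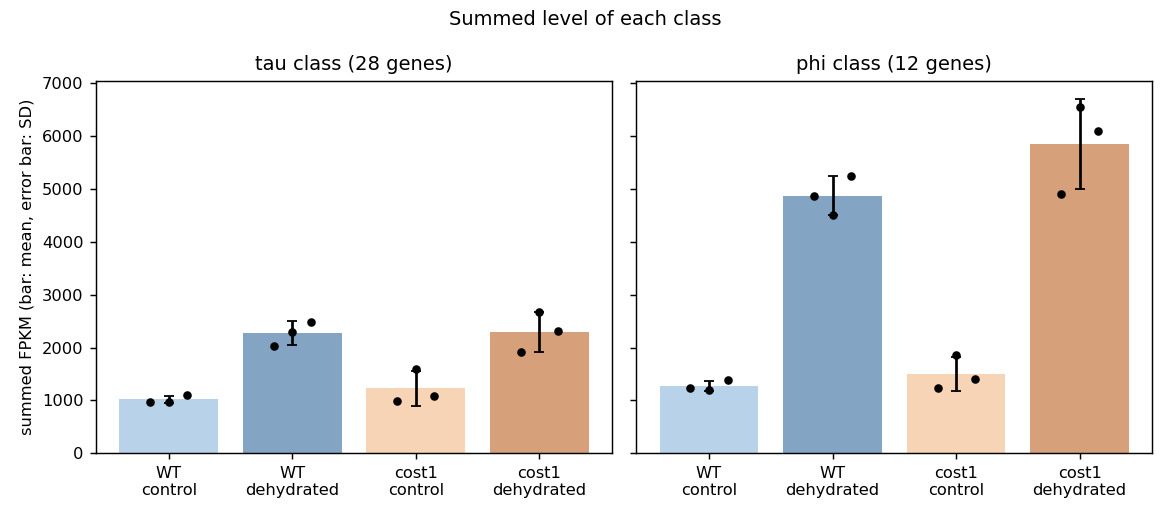
Summed FPKM of the tau and of the phi genes. Bars are group means, error bars are SD over 3 libraries and points are libraries. The phi sum goes from 1275 to 4870 FPKM between WT control and WT dehydrated and the tau sum from 1019 to 2271.

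Neighbouring copies often differed in their response. Of 19 neighbouring pairs, 13 averaged at least 5 counts for both loci over the 12 libraries and were tested. In 7 of these both loci also averaged at least 5 counts over the control libraries alone. The log2 ratio of the neighbours' counts was called as changed on dehydration in all 7. For GSTF7 with GSTF6 the division of reads is uncertain, and the call did not hold without some single libraries, as given below. The test was an exact two-sided permutation test of the treatment labels within genotype, with 400 arrangements and a smallest possible p of 0.005, adjusted over the 13 pairs. These pairs include loci whose single responses are given above. Over all genes tested, 24.9% were called higher and 20.6% lower in WT, so ratios of other gene pairs may change as well. Whether neighbouring copies differ more often than other pairs was not tested. GSTU2, GSTU3, GSTU12 and GSTU25 averaged under 5 counts in the control libraries and met the limit only through the dehydrated ones. They lie in 6 of the 13 pairs, whose ratio changes are given as descriptions only. The 3 calls among these 6 bring the count of called pairs to 10 and are not used as support. An alternative chosen after seeing the data exchanged cost1 labels only between libraries of the same number, with 160 arrangements and a smallest possible p of 0.0125. It called 11 pairs, the 10 and GSTU12 with GSTU11, which belongs to the 6.

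On chromosome 2 GSTU1 (AT2G29490) to GSTU7 (AT2G29420) lie in 1 run of copies. GSTU7 stood at 41.2, 46.5 and 54.95 FPKM in WT control, 58.5, 58.3 and 70.7 in WT dehydrated, 43.9, 51.96 and 62.04 in cost1 control, and 82.4, 59.9 and 83.8 in cost1 dehydrated. GSTU6 (AT2G29440) stood at 1.47, 1.34 and 0.88 FPKM in WT control, 7.31, 19.99 and 20.1 in WT dehydrated, 0.51, 2.30 and 1.46 in cost1 control, and 7.25, 20.4 and 11.4 in cost1 dehydrated. GSTU5 (AT2G29450) stood at 83.4, 83.97 and 96.5 FPKM in WT control, 325, 514 and 527 in WT dehydrated, 76.6, 127 and 80.8 in cost1 control, and 309, 580.0 and 492 in cost1 dehydrated. GSTU5 was thus the abundant copy and GSTU6, with 83.11% of its coding bases identical to those of GSTU5, stood at a small part of that level in every library. GSTU2 (AT2G29480) stood at 0.17, 0.17 and 0 FPKM in WT control, 1.73, 2.62 and 4.52 in WT dehydrated, 0.18, 1.20 and 0.34 in cost1 control, and 0.35, 3.30 and 3.65 in cost1 dehydrated. GSTU1 stood at 5.04, 6.78 and 7.49 FPKM in WT control, 8.42, 10.3 and 23.1 in WT dehydrated, 4.50, 11 and 6.49 in cost1 control, and 11.03, 17.5 and 14.3 in cost1 dehydrated. Both had low levels throughout, and the cost1 groups of GSTU2 overlapped. Between neighbours, the log2 ratio of GSTU7 to GSTU6 fell by 2.92, that of GSTU5 to GSTU4 fell by 3.51 and that of GSTU6 to GSTU5 rose by 1.07. Each of these had the smallest p that the permutation test can give, 0.005 (adjusted p = 0.00813). The log2 ratio changes of pairs with GSTU2 or GSTU3, which averaged 2 and 4.5 counts per control library, were 3.46 for GSTU3 to GSTU2, 1.84 for GSTU2 to GSTU1 and −0.49 for GSTU4 to GSTU3. The call of GSTU2 with GSTU1 was lost in 6 of the 12 tests that left out 1 library, and GSTU4 with GSTU3 was not called. GSTU3 and GSTU4 had fractional counts in 5 libraries each.

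GSTU18 (AT1G10360) lies beside GSTU17 on the same strand of chromosome 1, and the annotated transcripts overlap by 71 bases. GSTU18 stood at 42.6, 30.6 and 37.1 FPKM in WT control, 56.5, 74.2 and 44.5 in WT dehydrated, 37.2, 43.1 and 33.5 in cost1 control, and 57.9, 37.4 and 55.4 in cost1 dehydrated. The WT dehydrated libraries of GSTU18 lay above the WT controls, and the cost1 groups overlapped. Its log2 change was 0.81 ± 0.21 (SE, adjusted p = 0.00867) in WT and 0.54 ± 0.21 (SE, adjusted p = 0.0487) in cost1, where the call was lost in 14 of 21 alternatives, among them the fit with the replicate number as a block (adjusted p = 0.0595). The log2 ratio of GSTU18 to GSTU17 fell by 2.67 on dehydration (exact permutation test, p = 0.005, adjusted p = 0.00813). How reads in the shared bases were assigned is not stated in the labels.

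The log2 ratio of GSTU20 to GSTU19 fell by 1.41 (exact permutation test, p = 0.005, adjusted p = 0.00813). GSTU25 (AT1G17180) averaged 2.5 counts per control library, and its log2 ratio to GSTU26 was 3.16 higher after dehydration. GSTU25, related to GSTU24 and like it studied for TNT detoxification, stood at 0.16, 0.32 and 1 FPKM in WT control, 2.09, 1.96 and 3.25 in WT dehydrated, 0.17, 0.80 and 0 in cost1 control, and 1.14, 2.43 and 0.97 in cost1 dehydrated. Its levels were near those of a few reads in the controls. The cost1 change of GSTU25 was 2.30 ± 0.82 (SE, adjusted p = 0.0345), and 4.07 without cost1 control replicate 2. In WT it was 2.41 ± 0.73 (SE, adjusted p = 0.0175), and 3.36 without WT control replicate 3. The log2 ratio change was 1.28 for GSTU12 to GSTU11 and 0.63 for GSTU24 to GSTU25. Both are given as descriptions, and neither pair was called.

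GSTF9 (AT2G30860) stood at 647, 648 and 713 FPKM in WT control, 1038, 698 and 979 in WT dehydrated, 670.5, 994 and 767 in cost1 control, and 804, 779 and 906 in cost1 dehydrated. GSTF10 (AT2G30870), its neighbour on chromosome 2 and a partner of the receptor kinase BAK1, stood at 222, 221 and 223 FPKM in WT control, 636, 669 and 749 in WT dehydrated, 219.9, 216 and 268 in cost1 control, and 654, 714 and 728 in cost1 dehydrated. GSTF9 was the more abundant copy in the controls, and its treatment groups overlapped in FPKM in both genotypes, while the treatment groups of GSTF10 lay far apart. The log2 change of GSTF9 was 0.63 ± 0.18 (SE, adjusted p = 0.0153) in WT and 0.21 ± 0.18 (SE, adjusted p = 0.366) in cost1, the latter not called, and the WT call was lost in limma fits of log2 FPKM (adjusted p = 0.0724 and 0.0733). GSTF10 changed by 1.77 ± 0.12 (SE, adjusted p = 1.04e-06) in WT and 1.73 ± 0.12 (SE, adjusted p = 1.17e-06) in cost1. The log2 ratio of GSTF9 to GSTF10 fell by 1.33 (exact permutation test, p = 0.005, adjusted p = 0.00813). That of GSTF7 to GSTF6 fell by 0.65 (exact permutation test, adjusted p = 0.0289), a call lost in 3 of the 12 tests that left out 1 library.

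**Figure D4:**
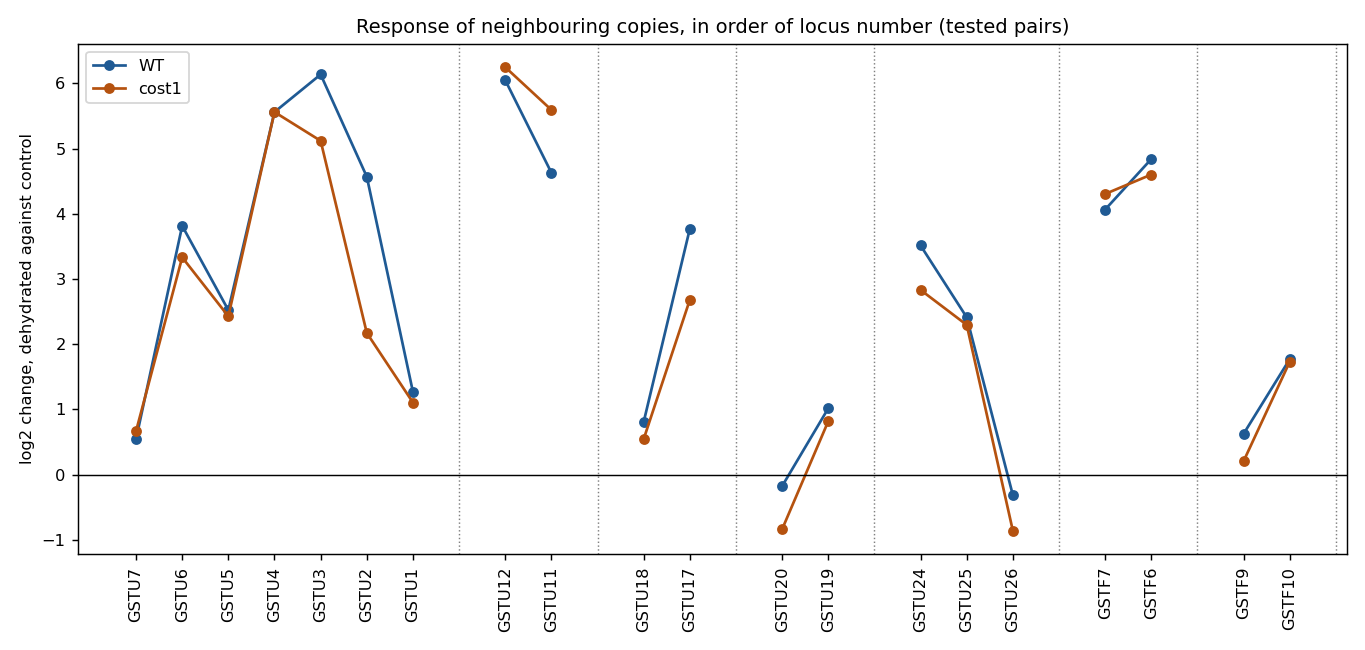
Log2 change on dehydration in WT and cost1 of neighbouring copies, joined by lines within each run of tested neighbours and set in order of locus number. Copies next to each other differ, as GSTU20 and GSTU19 or GSTU18 and GSTU17 do, and the WT and cost1 lines have the same shape in most runs.

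Sequences just before the annotated starts are shown for GSTF9 and GSTF10, neighbours whose ratio changed, for GSTU3 and GSTU4, neighbours whose ratio change was not called, and for GSTU17. Each is the 250 bases before the gene's start in RefSeq's annotation of TAIR10.1, written 5′ to 3′ on the gene's strand. Capitals mark TGACG, the core of the as-1 element that TGA factors bind, and ACGTG, the core of the ABA response element, on either strand.
GSTU3 (chr2:12629641-12629890, minus strand): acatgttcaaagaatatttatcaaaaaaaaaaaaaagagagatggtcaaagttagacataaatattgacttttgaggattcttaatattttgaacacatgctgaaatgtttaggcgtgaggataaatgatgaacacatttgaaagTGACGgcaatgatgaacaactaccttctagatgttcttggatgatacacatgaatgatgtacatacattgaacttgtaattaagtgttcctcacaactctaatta
GSTU4 (chr2:12627892-12628141, minus strand): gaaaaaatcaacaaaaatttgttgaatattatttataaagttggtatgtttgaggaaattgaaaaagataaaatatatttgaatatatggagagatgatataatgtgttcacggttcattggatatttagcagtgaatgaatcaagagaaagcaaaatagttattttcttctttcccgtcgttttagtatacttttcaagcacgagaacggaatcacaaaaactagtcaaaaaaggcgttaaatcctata
GSTU17 (chr1:3398359-3398608, minus strand): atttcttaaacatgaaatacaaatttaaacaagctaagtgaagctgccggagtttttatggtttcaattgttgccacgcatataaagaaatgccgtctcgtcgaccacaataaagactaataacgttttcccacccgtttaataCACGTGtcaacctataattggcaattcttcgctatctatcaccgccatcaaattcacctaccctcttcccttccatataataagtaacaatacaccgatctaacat
GSTF9 (chr2:13138632-13138881, plus strand): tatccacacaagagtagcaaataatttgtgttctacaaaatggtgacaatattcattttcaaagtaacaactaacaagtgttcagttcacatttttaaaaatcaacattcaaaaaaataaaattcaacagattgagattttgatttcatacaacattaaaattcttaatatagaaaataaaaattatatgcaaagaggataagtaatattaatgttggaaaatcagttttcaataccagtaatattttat
GSTF10 (chr2:13141040-13141289, plus strand): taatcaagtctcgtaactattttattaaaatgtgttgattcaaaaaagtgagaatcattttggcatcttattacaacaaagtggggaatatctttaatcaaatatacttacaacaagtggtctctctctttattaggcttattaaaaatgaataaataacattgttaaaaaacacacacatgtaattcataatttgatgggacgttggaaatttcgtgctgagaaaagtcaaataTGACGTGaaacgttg
GSTU17 held CACGTG, in which ACGTG reads on both strands, GSTF10 held both motifs overlapping as TGACGTG, and GSTU3 held TGACG. GSTU4 and GSTF9 held neither in this window. No other annotated gene lies in these windows.

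Over the 40 members, TGACG was found in 14 windows (35.0%), beside 18.6% of the 27443 windows of the same length before annotated genes. ACGTG was found in 14 (35.0%), beside 22.9% of all windows, and TTGAC, the core of the W-box that WRKY factors bind, in 23 (57.5%), beside 44.9%. Each motif was searched on both strands, and TGACG and ACGTG can overlap. Of the 27 members called higher in WT, 12 held TGACG, 12 held ACGTG and 18 held TTGAC, and of the other 13 members, 2, 2 and 5 did. Those 13 are the 7 not tested, the 5 not called and the 1 called lower, so they are not a set shown not to respond. The windows of GSTU2, GSTU5, GSTU7, GSTU8, GSTU10, GSTU18, GSTU24, GSTU28, GSTF2, GSTF8, GSTF11 and GSTF12 overlap another annotated gene and are counted here. Such overlap was not looked up for the windows of all genes. No test was made of these shares. A match is a description of letters and not a site.

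Between the genotypes, no member was called. In control seedlings 0 of 33 tested members were called in edgeR, with 2 at an unadjusted p under 0.05 (4.75% of all genes), where 0.0159% of all genes tested were called higher and 0.00532% lower. After dehydration 0 were called, with 4 at an unadjusted p under 0.05 (8.7% of all genes), where 0.0319% of all genes were called higher and 0.00532% lower. The difference between the responses, the interaction, was called for 0 members and for 0 of 18809 genes, with 0 members and 690 genes (3.67%) at an unadjusted p under 0.05. DESeq2 and the other alternatives also called 0 members in these 3 comparisons. A p that misses the threshold does not show that the genotypes were alike.

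In control, the 2 members with the smallest p were GSTF12, 3.73 ± 1.37 (SE) on the log2 scale in cost1 minus WT, and GSTU17, 0.99 ± 0.40, each with an adjusted p of 0.965. Without cost1 control replicate 2 the differences were 1.23 ± 1.32 for GSTF12 and 0.21 ± 0.24 for GSTU17. After dehydration, the 4 members with the smallest p were GSTF3, 0.94 ± 0.28, GSTU9, 1.87 ± 0.59, GSTU26, −0.74 ± 0.26, and GSTF7, 0.42 ± 0.18, with adjusted p from 0.505 to 0.561. These 6 members were named for their small p after the values were seen. GSTF14, which was not tested and was also named after its values were seen, had expected counts of 16, 9 and 8 in cost1 control and 3, 2 and 7 in WT control, and of 3 or fewer in each dehydrated library. How many of all genes had control groups that did not overlap between the genotypes is not given here.

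Replicate 2 of cost1 control lay above the range of the other 5 control libraries for 22 of the 33 tested members, within it for 8 and below it for 3. It was the highest of the 6 control libraries for 66.7% of the tested members and for 30.1% of all genes tested. Among the dehydrated libraries, cost1 dehydrated replicate 2 was the highest for 42.4% of the tested members and 24.8% of all genes tested. The members raised in cost1 control replicate 2 included GSTF12, GSTU4, GSTU17 and GSTF6, all given above.

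**Figure D5:**
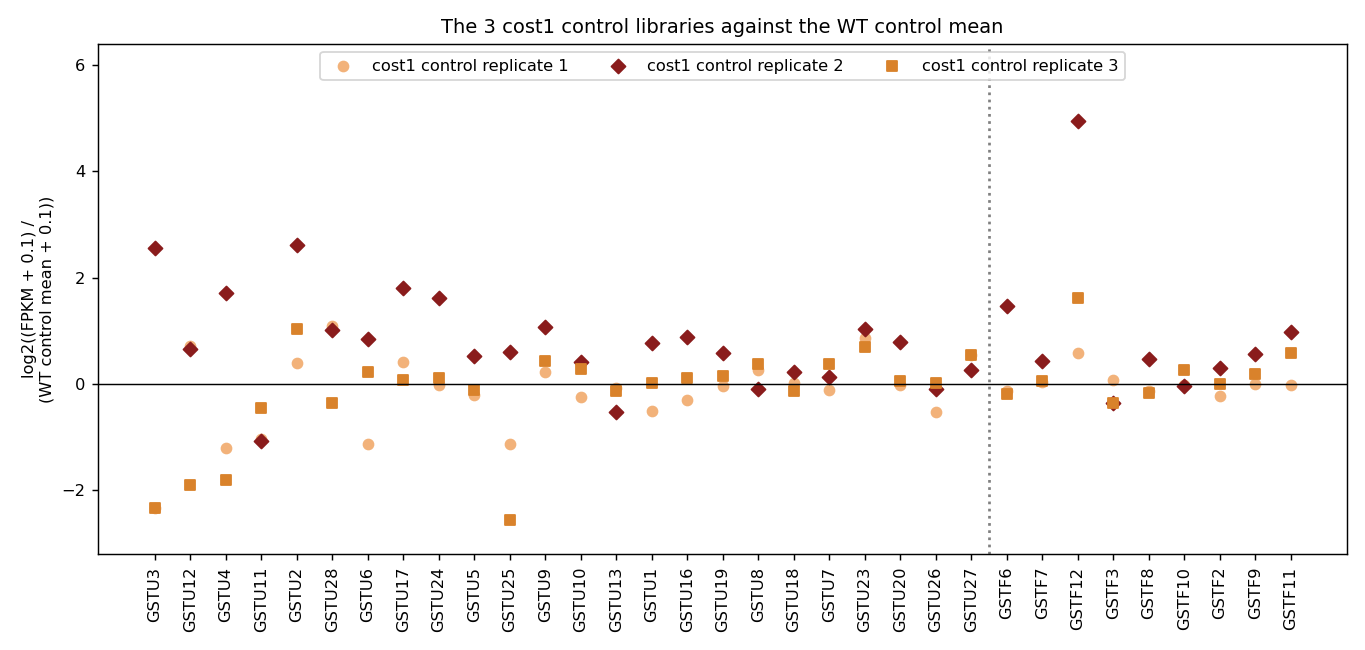
Log2 of FPKM plus 0.1 in each of the 3 cost1 control libraries, relative to the WT control mean plus 0.1, for the 33 members tested. Diamonds, replicate 2, lie above the other symbols for most members, and GSTF12 is the highest, while replicates 1 and 3 lie mostly near 0 except for members with very few counts.

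Related gene lists were read against the shares of all genes tested that were called higher, 24.9% in WT and 26.4% in cost1. Of 4 transporters of the ABCC group, which includes carriers of glutathione conjugates, 4 were called higher in WT and 3 in cost1. None was called lower. ABCC4 changed by 2.08 ± 0.28 (SE) on the log2 scale in WT, ABCC3 by 1.57 ± 0.27, ABCC2 by 0.86 ± 0.17 and ABCC1 by 0.32 ± 0.12 (adjusted p = 0.0474). The call of ABCC1 was lost in 13 of 21 alternatives. The list's median log2 change was 1.21 in WT, beside −0.02 over all genes tested.

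Of 14 tested genes of glutathione synthesis, reduction and turnover, 8 were called higher in WT and 7 in cost1, and none lower, beside 24.9% and 26.4% of all genes, with a median log2 change of 0.97 in WT. The WT call of GSH1, the first enzyme of glutathione synthesis (adjusted p = 0.0440), was lost in 12 of 21 alternatives. GGP1, a cytosolic peptidase that trims glutathione conjugates, rose by 2.18 ± 0.14 (SE). GGT4, which starts the breakdown of conjugates in the vacuole, rose by 1.63 ± 0.14, the apoplastic GGT1 by 2.58 ± 0.24 and the phytochelatin synthase PCS1 by 2.36 ± 0.30. Among 12 tested glutathione transferases outside the 40, of other classes except for GSTF4, 3 were called higher in WT and 4 in cost1. Their median was 0.11 in WT, and these counts are near the shares of all genes, 24.9% and 26.4%. The 3 were GSTL1 of the lambda class, at 5.25 ± 0.53, the dehydroascorbate reductase DHAR1, at 2.74 ± 0.34, and GSTZ1 of tyrosine breakdown, at 1.59 ± 0.25. GSTF4, the phi gene outside the 40, changed by 0.02 in WT and was not called.

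Of 11 TGA, SCL14 and NAC genes, regulators of detoxification genes, 7 were called higher in WT and 8 in cost1, and none lower, beside 24.9% and 26.4% of all genes, with a median of 1.04 in WT. All 7 called in WT were NAC genes, while TGA2 (−0.23), TGA5 (0.47), TGA6 (−0.07) and SCL14 (0.31) were not called in WT. In cost1 TGA5 was called as well, a call lost in 8 of 21 alternatives. The NAC factor ANAC053 rose by 2.30 ± 0.12 (SE), ANAC102 by 2.33 ± 0.17, ANAC032 by 4.97 ± 0.38 and ANAC013, a factor of the mitochondrial stress response, by 2.52 ± 0.22. Of 10 other genes known to respond to xenobiotics, 8 were called higher in each genotype, beside 24.9% and 26.4% of all genes, with a median of 2.58 in WT. The cost1 call of OPR2, an oxophytodienoate reductase gene, was lost in 7 of 21 alternatives. They included the alternative oxidase AOX1A, at 2.68 ± 0.17, the cytochrome P450 gene CYP81D8, at 5.01 ± 0.36, and the glucosyltransferase genes UGT73B4, at 4.83 ± 0.43, and UGT73B5, at 2.48 ± 0.23. No gene of these 5 lists was called between the genotypes.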

How the data were processed

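Per the file headers, each deposited table holds expected counts and FPKM by gene, with transcript names and a length. Expected counts were estimated by the authors and deposited unscaled, and FPKM values were scaled by the authors to length and depth. STAR 2.4.0, HTSeq 0.6.0, DESeq2 and TAIR10 are named in the submitters' processing notes, with no step given. A gene absent from a table was read as 0.

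Rounded expected counts went into edgeR 4.0.16 under R 4.3.3 (filterByExpr over the groups, TMM, quasi-likelihood F tests, 12 libraries in 1 fit with 1 coefficient per group), with Benjamini-Hochberg adjustment over 18809 genes. The edgeR steps were also run on simulated counts, with independent libraries and the same spread setting for all genes. That run does not show how the steps behave on these data. Standard errors come from the F statistic. Totals of 5884728 to 6223687 counts per library limit the precision of low genes. Neighbour ratios used log2 counts plus 0.5. Alternatives were DESeq2 1.42.0, other scalings, no filter, limma 3.58.1 on log2 FPKM plus 0.1 or 1, only the groups compared, a replicate block, and leaving out libraries.

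Sequences come from RefSeq's TAIR10.1, where 13455 of 13455 genes with 1 transcript in both had the deposited length. The annotation has symbols for the loci.

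Library values are printed for the most abundant member of each class, for up to 4 largest rises and 4 largest falls per response among called, non-overlapping members averaging at least 1 FPKM in the higher group, and for called neighbour pairs; list genes are up to 4 with the smallest p in WT. GSTF12, GSTF14, GSH1, OPR2, the TGA genes, SCL14 and the members compared between genotypes were chosen after their values were seen. The members and lists were chosen with earlier results of these data known.

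Deviations of same-numbered libraries correlated by 0.17, 0.38 and 0.18 in the cost1 response and by 0.04, 0.01 and 0.03 in WT. Between the dehydrated groups of WT and cost1 they correlated by 0.39, −0.06 and −0.18, and between the control groups by 0.03, −0.14 and −0.15. The main tests took no pairing. Numbers were taken to pair libraries only in the replicate block and in the alternative neighbour test, the latter in cost1 alone. The pairing in cost1 comes from these correlations, since no label states it.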

Additional observations from a re-analysis of the deposited data

How the results depend on the processing

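The 5 comparisons were recomputed under up to 21 alternatives, and leaving out both cost1 libraries numbered 2 was chosen after seeing the data. No called change turned its direction. Members called higher numbered 21 to 28 in WT and 20 to 26 in cost1, beside 27 and 25, and both limits were reached by leaving out 1 library. Members called lower numbered 1 in WT throughout and 2 to 5 in cost1, beside 4: 3 to 4 when 1 library was left out, 5 with DESeq2, and 2 without both cost1 libraries numbered 2, which leaves cost1 groups of 2 libraries. Of 28 WT calls 22 held in every alternative, as did 22 of 29 in cost1; those that did not were GSTU1, GSTU7, GSTU9, GSTU25, GSTF9 and GSTF12 in WT and GSTU1, GSTU2, GSTU16, GSTU18, GSTU20, GSTU25 and GSTU26 in cost1. The cause was not tested. The replicate block gave 27 members higher and 1 lower in WT and 24 higher and 4 lower in cost1, where the pairing ended the call of GSTU18 and no other. Neighbour pairs called numbered 8 to 11, beside 10, and 11 with the replicate block in cost1. These counts include pairs that met the limit on counts only through the dehydrated libraries. Without scaling the median of all genes was −0.16 in WT and −0.19 in cost1, and 26 and 22 members were called higher. Genes with few counts, among them the 7 below 10 counts in every control, are limited by depth.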
